A study of Mus musculus with 26 samples.

Results

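YFP-negative liver cells were compared between day 7 and day 3 of a diet containing DDC, a porphyrinogenic toxin that injures the bile ducts and hepatocytes of the mouse liver. The animals were Foxl1-Cre; RosaYFP mice of 6 to 10 weeks, in which every cell that has made the Foxl1-driven Cre recombinase, and every descendant of such a cell, carries the yellow fluorescent protein YFP. The YFP-negative fraction is what remains after those cells are sorted away: liver cells outside the hepatocyte (parenchymal) fraction, negative for the leukocyte surface protein CD45 and without YFP. The comparison uses 2 groups of arrays, YFP-negative cells after 3 days (3 arrays, numbered 1, 3 and 4) and after 7 days (3 arrays, also numbered 1, 3 and 4), which makes 6 of the 20 samples of the series with a scanner file and of its 26 samples in all. Both groups carry the same Cre and reporter alleles and both ate DDC, so neither is an uninjured control. YFP-positive cells of the same days (4 arrays at day 3 and 3 at day 7), YFP-negative cells at day 14 (3 arrays) and the whole non-parenchymal fraction of mice on chow, called day 0 (2 arrays), give levels for reference and share the estimate of the spread, and the YFP-positive arrays also enter a test of the difference between fractions. A YFP-negative cell is one without recombination of the reporter, which a Cre driver of limited efficiency can also leave in cells that expressed the driver. The labels do not say whether arrays of a group come from separate animals or from pools, so the tests measure the spread between these samples, which may be partly technical.

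The non-parenchymal liver holds sinusoidal endothelial cells, which line the blood channels and clear waste from the portal blood, stellate cells, which store vitamin A and turn into matrix-producing myofibroblasts after injury, resident macrophages called Kupffer cells, and the epithelium of the bile ducts. DDC blocks heme synthesis, so that porphyrins accumulate and plug small ducts, and hepatocytes answer with an antioxidant program under the transcription factor NRF2. Injury of this kind also recruits monocytes and neutrophils, induces chemokines and interferon-responsive genes, and activates portal fibroblasts and stellate cells.

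On the 6 arrays 83.5 to 88.3 percent of spots were well above background, within the 81 to 91.2 percent of all 20 arrays, and no spot was saturated. Values are log2 signals relative to the 75th percentile of the array, so 0 is that percentile, and levels of different genes are not compared. The 6 arrays lay on 4 slides. Array 3 of both days shared slide 6 and array 4 of both days shared slide 7, which gives 2 differences within a slide, while array 1 of day 3 was on slide 1 and array 1 of day 7 on slide 4. Pairs of the 6 arrays correlated at 0.872 to 0.940 over all genes, and the lowest value was between arrays 1 and 4 of day 7, not between days.

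No gene passed at an adjusted p under 0.05 (limma, Benjamini-Hochberg over 26650 genes), neither higher nor lower (0 percent in each direction), and the smallest adjusted p was 0.483. At an unadjusted p under 0.05 by limma, 982 genes stood out, 651 higher at day 7 (2.44 percent) and 331 lower (1.24 percent). All 3 day 7 arrays lay above all 3 day 3 arrays for 1289 of 26565 genes measured on every one of the 6 arrays (4.85 percent), and below them for 676 (2.54 percent). A gene whose days do not overlap in this way is called separated, and these 2 shares are the background for the lists below. The median difference over all genes was 0.05, and it was -0.13 within slide 6 and 0.45 within slide 7. The mean was higher at day 7 for 14323 genes and lower for 12327. Of the separated genes 65.6 percent were higher at day 7, but 53.1 percent after quantile or median scaling and 29.1 percent after normexp background correction, where the median over all genes moved to -0.43. The balance of higher and lower genes thus depended on the scaling, and the medians of some lists are also given relative to all genes.

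Leukocyte markers spread more widely among the day 7 arrays than among the day 3 arrays. The 18 macrophage markers had a mean level of 2.44, 2.37 and 3.08 on the day 3 arrays 1, 3 and 4, and of -1.0, 3.78 and 3.65 on the day 7 arrays in the same order. Array 1 of day 7 was the lowest of the 6, and arrays 3 and 4 of day 7 were the highest. On the reference arrays the macrophage mean was -1.7 to 0.9 at day 14, and 1.03 and -1.12 at day 0. Array 1 of day 7 lay within these values, and the other day 3 and day 7 arrays lay above them. Array 1 of day 7 was also lowest for 13 neutrophil genes (-3.44, against 1.89 and 1.82 on the other day 7 arrays and -2.08, -1.87 and 0.26 at day 3), for 20 lymphocyte genes (-4.76, against -1.05 and -1.72, and -3.21, -3.59 and -1.52) and for 10 erythroid genes (-3.16, against -0.84 and -0.49, and -0.87, -0.30 and 0.28). The neutrophil mean was -4.01 to -1.67 at day 14, and -2.16 and -5.57 at day 0, a range that also held this array. Ptprc, which encodes CD45, the protein used to sort leukocytes away, gave 1.69, 1.5 and 3.37 at day 3 and -0.78, 4.38 and 4.38 at day 7, well above background on all 6 arrays. The transcript of the sorting marker was thus measured in a fraction sorted as CD45-negative, least on array 1 of day 7 and most on its arrays 3 and 4. Adgre1, the F4/80 antigen of macrophages, followed the same order, with 3.35, 2.62 and 3.34 at day 3 and -1.36, 4.34 and 4.11 at day 7. Its difference of -0.74 ± 2.11 (SE) turned to 1.12 without array 1 of day 7. Without that array 10 of 18 macrophage, 13 of 13 neutrophil and 6 of 20 lymphocyte genes were separated, all higher at day 7 (14.2 percent of all genes). With all 6 arrays 12 of 13 neutrophil genes had a higher mean at day 7 (median 1.18), and 1 was separated. Bulk samples of this kind cannot tell fewer cells of a type from less RNA per cell.

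**Figure D1:**
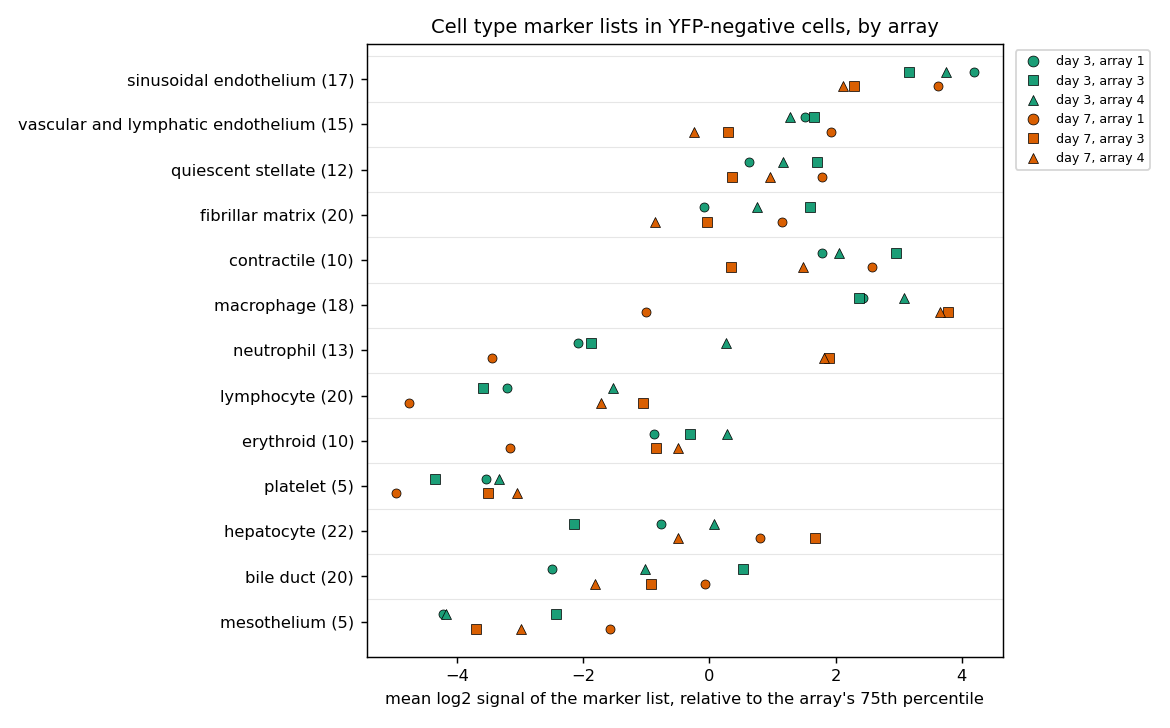
Mean log2 signal of 13 cell type marker lists (number of genes measured in parentheses) on each of the 6 YFP-negative arrays, relative to the array's 75th percentile. Green symbols are day 3 and orange symbols day 7, and the shape gives the array number. The orange circle, array 1 of day 7, lies far left of the orange square and triangle for macrophage (-1.0 against 3.78 and 3.65) and neutrophil genes (-3.44 against 1.89 and 1.82).

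Markers of the sinusoidal endothelium had a high mean level on every array, and all 17 had a lower mean at day 7. Their mean level was 4.19, 3.16 and 3.75 on the day 3 arrays and 3.62, 2.29 and 2.12 on the day 7 arrays, so that arrays 3 and 4 of day 7 were lowest and array 1 lay within the range of day 3. For 3 of 17 members (17.6 percent, against 2.54 percent of all genes) the day 7 arrays all lay below the day 3 arrays. The median difference was -0.99, or -1.04 relative to all genes and -0.51 relative to all genes with normexp. Within slides 6 and 7 the median was -0.79 and -1.74. Without array 1 of day 7 the separated members numbered 16 of 17, while that shortened comparison separated 10 percent of all genes in this direction. Arrays 3 and 4 of day 7, which carried the lower values, were also the highest for macrophage (3.78 and 3.65) and neutrophil genes (1.89 and 1.82), and the part of those cells in the result was not tested. Without array 3 of day 3 the separated members numbered 12 of 17 (6.69 percent of all genes). With normexp or quantile scaling they numbered 1 of 17 (5.88 percent, against 4.95 and 3.82 percent of all genes).

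Among single genes of this list, Stab2, the hyaluronan scavenger receptor of the sinusoid, measured 4.30, 3.24 and 4.48 at day 3 and 3.70, 2.17 and 1.95 at day 7. The days overlapped through array 1 of day 7, and the difference was -1.40 ± 0.68 (SE, 3 against 3 arrays, adjusted p = 1 by limma). Lyve1, another hyaluronan receptor, gave 4.54, 2.86 and 4.02 against 3.31, 2.12 and 0.78 (-1.73 ± 0.87), and the clotting factor gene F8, made by these cells, gave 3.33, 1.67 and 2.80 against 2.39, 0.23 and -0.06 (-1.75 ± 0.86). The 3 separated members, named after their values were seen, were the scavenger receptor gene Stab1 (-0.99 ± 0.80), Ehd3, a gene of endocytic recycling (-0.70 ± 0.63), and the orphan receptor gene Gpr182 (-0.34 ± 0.33), and each difference was of about the size of its standard error. At day 14 Stab2 stood at 4.13, 4.08 and 2.32, so 2 of 3 arrays lay in the range of day 3.

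Other endothelial genes, and single genes of the Notch and growth factor lists, stood lower as well. Of 15 vascular and lymphatic endothelial markers 12 had a lower mean at day 7 (median -1.03, and -1.19 and -1.46 within slides 6 and 7). Relative to all genes the median was -1.08, or -0.55 with normexp. Only 1 of 15 was separated (6.67 percent, against 2.54 percent of all genes), the TGF-beta co-receptor gene Eng with 0.87, 0.32 and 1.66 at day 3 and 0.26, -1.17 and -1.80 at day 7. Without array 1 of day 7 the separated markers were 11 of 15, against 10 percent of all genes. Efnb2, the ephrin of arteries, measured 3.12, 3.23 and 2.41 against 2.95, 0.73 and 1.02 (-1.35 ± 0.59), and Pecam1, the junction gene CD31 of all endothelium, differed by -1.06 ± 0.93. Hes1, a transcriptional repressor switched on directly by Notch, was the clearest member of the Notch list: it gave 0.48, 0.93 and -0.42 at day 3 and -0.78, -1.73 and -2.59 at day 7. All 3 day 7 arrays lay below day 3, with a difference of -2.03 ± 0.66 (4.08-fold) and -2.66 and -2.17 within slides 6 and 7. The endothelial Notch ligand gene Dll4 measured -1.30, -1.70 and -1.94 against -1.87, -3.64 and -3.08, which overlapped (-1.22 ± 0.59). In all, 11 of 15 Notch genes had a lower mean (median -0.52, or -0.57 relative to all genes and -0.04 with normexp), and Hes1 was the 1 gene of 15 separated (6.67 percent, against 2.54 percent of all genes). The count was 2 with normexp or quantile scaling (4.95 and 3.82 percent of all genes) and 3 with median scaling (3.56 percent). It was 4 without array 4 of day 3 (7.34 percent of all genes) and 9 without array 1 of day 7 (10 percent). Angpt2, a vessel-destabilising ligand made by endothelium, measured 0.61, 0.04 and -0.27 at day 3 and -1.63, -2.20 and -1.69 at day 7, without overlap (-1.97 ± 0.80). It was the 1 separated gene of 16 growth factors (6.25 percent, against 2.54 percent of all genes), and without array 1 of day 7 there were 4 (10 percent of all genes).

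In YFP-positive cells Hes1 and Angpt2 differed in the same direction between these days, by -1.53 and -1.52. There the sinusoidal list had a median difference of -0.06, and the vascular and lymphatic list of -0.14. Which cells carried the differences of Hes1 and Angpt2 was not tested. The difference between the fractions did not pass for any gene (0 of 26650, 0 percent, smallest adjusted p of 1 by limma), and 769 genes (2.89 percent) had an unadjusted p under 0.05.

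Stromal genes stood lower on arrays 3 and 4 of day 7 than on array 1. The 20 fibrillar matrix genes had mean levels of -0.08, 1.60 and 0.75 at day 3 and 1.15, -0.04 and -0.86 at day 7, and the 10 contractile genes 1.78, 2.96 and 2.05 against 2.58, 0.34 and 1.48. In both lists array 1 of day 7 lay among the day 3 arrays, and no member was separated by day. The mean was lower at day 7 for 18 of 20 matrix genes (median -0.74, within slides -1.95 and -1.71) and for 10 of 10 contractile genes (median -0.90, within slides -3.20 and -0.69). Relative to all genes these 2 medians were -0.79 and -0.95, or -0.27 and -0.45 with normexp. Without array 1 of day 7, 12 of 20 matrix and 7 of 10 contractile genes were separated below (10 percent of all genes). The same arrays 3 and 4 were highest for macrophage and neutrophil genes (3.78 and 3.65, 1.89 and 1.82), whose part in these values was not tested. Col1a1, the main fibrillar collagen, measured 1.39, 3.41 and 2.18 against 2.66, 1.25 and -0.18 (-1.08 ± 1.67). Loxl1, which crosslinks elastin, gave -2.66, -1.81 and -1.03 against -1.97, -4.40 and -5.73 (-2.20 ± 0.80), and fibronectin, Fn1, went the other way with -0.48, 3.18 and 2.56 against 2.10, 3.90 and 4.67 (1.80 ± 0.96). The actin gene Acta2 of smooth muscle and myofibroblasts held a narrow range of 4.38 to 4.66 at day 3 and 4.04 to 5.04 at day 7, a difference of -0.02 ± 0.31 that turned sign under other settings. The muscle calponin gene Cnn1 differed by -1.51 ± 0.64 with overlap.

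The vitamin A storing function was represented by Lrat, which esterifies retinol in stellate cells. It measured -0.36, 0.41 and -0.08 at day 3 and 1.44, 0.56 and 0.93 at day 7, so that every day 7 array was higher, by 0.98 ± 0.71, but its other probe gave the opposite sign. It was the 1 separated gene of 12 markers of quiescent stellate cells (8.33 percent against 4.85 percent of all genes), and 8 of the 12 had a lower mean at day 7, among them the intermediate filament gene Des (-1.18 ± 0.98). Without array 1 of day 7, 3 of the 12 were separated below (10 percent of all genes). At day 14 Lrat reached 2.59, 1.57 and 1.62, above every array of days 3 and 7, and on the day 0 arrays of unsorted cells its mean was -2.39. Of 16 matrix proteases and inhibitors, the membrane collagenase gene Mmp14 was lower on every day 7 array (2.79, 2.19 and 2.55 against 1.97, 1.02 and 1.56; named after its values were seen) and the metalloproteinase gene Mmp19 higher (-6.06, -6.10 and -4.17 against -3.96, -3.24 and -4.15). Each was the 1 gene of 16 separated in its direction (6.25 percent, against 2.54 percent of all genes below and 4.85 percent above). With normexp, quantile or median scaling no member was separated above, and 2, 1 and 1 were below. Mmp14 differed by -0.99 ± 0.52 and Mmp19 by 1.66 ± 0.79. Timp3, a matrix-bound protease inhibitor, gave 2.70, 2.64 and 3.19 against 3.08, 1.05 and 0.33 (-1.36 ± 0.57) and overlapped through array 1 of day 7.

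Genes of the NRF2 and glutathione program held the largest share of separated members of the 29 lists. For 7 of 18 genes (38.9 percent, against 4.85 percent of all genes) every day 7 array lay above every day 3 array, and for none below. The median difference was 0.54, or 0.49 relative to all genes, and it was 0.73 and 0.29 within slides 6 and 7, where all genes stood at -0.13 and 0.45. Relative to all genes the list was thus higher on slide 6 and lower on slide 7. Under normexp, quantile and median scaling 6, 6 and 7 of 18 were separated above, 5 with the mean of a gene's probes, and leaving out any 1 of the 6 arrays gave 7 to 9, while the share of all genes above rose to between 7.48 and 14.2 percent. Normexp, and leaving out array 3 of day 3 or array 1 of day 7, also gave 1 member below (5.56 percent, against 4.95, 6.69 and 10 percent of all genes). These 18 genes were chosen with earlier results of these arrays in view, and none passed over all genes.

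Gstm1, a glutathione transferase of the mu class, measured 3.90, 3.00 and 4.13 at day 3 and 5.15, 5.24 and 4.98 at day 7 (means 3.68 ± 0.59 and 5.12 ± 0.13, SD, n = 3). The 3 day 7 arrays agree closely and lie above all day 3 arrays, a difference of 1.45 ± 0.47 or 2.73-fold (adjusted p = 1 by limma), with 2.23 and 0.86 within slides 6 and 7. The alpha class transferase Gsta1 gave 3.80, 0.72 and 3.58 against 4.92, 4.87 and 4.44 (2.04 ± 0.78). Its near-identical copy Gsta2 (3.70, 0.64 and 3.69 against 4.86, 4.93 and 4.31) is not independent of it, since a probe may read both. Both were lowest on array 3 of day 3. Gclc, the catalytic subunit of the enzyme that sets the rate of glutathione synthesis, measured 2.76, 3.23 and 2.75 against 3.49, 3.87 and 3.34, a small difference of 0.65 ± 0.29. It was 0.64 and 0.59 within slides 6 and 7, where all genes stood at -0.13 and 0.45. The other separated members, named after their values were seen, were the thioredoxin reductase gene Txnrd1 (4.47, 4.67 and 4.45 against 4.77, 5.03 and 5.38), the sulfiredoxin gene Srxn1 (0.89 ± 0.58) and Slc7a11, the cystine importer that feeds glutathione synthesis. Slc7a11 spread widely at day 7 (-2.86, -2.36 and -2.82 against -1.43, -0.40 and 2.48).

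Other classical targets overlapped. Nqo1, the quinone reductase often used as the readout of NRF2, measured 2.51, 2.05 and 1.51 at day 3 and 3.22, 2.38 and 0.74 at day 7, a difference of 0.09 ± 0.53 that turned sign under other settings. Hmox1, which degrades heme, gave 3.13, 3.27 and 4.15 against 0.91, 4.10 and 4.41 (-0.38 ± 0.91), lowest on array 1 of day 7, where macrophage genes were lowest too, and their part in the value was not tested. Akr1b8, an aldo-keto reductase, gave 3.90, 3.25 and 3.63 against 3.29, 2.11 and 2.08 (-1.1 ± 0.53). Hmox1 and Akr1b8 were named after their values were seen. In YFP-positive cells Gstm1, Gsta1 and Gclc differed by -0.37, -0.27 and -0.03 between the same days, but the difference between fractions did not pass (adjusted p = 1 by limma). At day 14 Gstm1 stood at 4.76, 4.56 and 3.58, and at day 0 its mean was 2.83. The mean level of the list was 1.48, 1.04 and 1.73 at day 3 and 2.07, 2.22 and 1.86 at day 7. Hepatocyte genes ordered the arrays of each day in the same way, and array 3 of day 3 was lowest for both lists. Their part in the result was not tested. Without that array 7 of 18 genes of this list (median 0.50), 9 of 22 hepatocyte genes and 10.3 percent of all genes were separated above.

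Hepatocyte genes were measured in every sample although hepatocytes had been separated off, and all 22 had a higher mean at day 7. Their mean level was -0.77, -2.15 and 0.08 on the day 3 arrays and 0.80, 1.67 and -0.49 on the day 7 arrays. The groups overlapped, since array 4 of day 7 lay below array 4 of day 3. The median difference was 1.58, or 1.53 relative to all genes, but 4.38 within slide 6 and -0.36 within slide 7, so that the slides disagreed in direction for the list. For 7 of 22 genes (31.8 percent, against 4.85 percent) all day 7 arrays lay above day 3. With normexp these were 4 of 22 (2.03 percent of all genes), and without array 4 of day 7 they were 14 of 22 (8.57 percent of all genes).

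Tat, which starts tyrosine breakdown, measured -2.18, -4.23 and -1.09 at day 3 and -0.35, 0.77 and -0.51 at day 7 (2.47 ± 0.78, with 5.0 and 0.58 within slides 6 and 7). Tdo2, the tryptophan oxygenase of hepatocytes, gave -1.73, -4.53 and -1.93 against 0.14, 1.09 and -1.37 (2.68 ± 1.09). Cyp7a1, the rate-limiting enzyme of bile acid synthesis, gave -7.06, -7.40 and -7.07 against -4.22, -2.86 and -6.52 (2.65 ± 1.18), where array 4 of day 7 lay close to the day 3 arrays and 2 of those 3 were well above background. Other separated genes, named after their values were seen, were Ass1 of the urea cycle (2.16 ± 1.07), the urate oxidase gene Uox (2.29 ± 1.32) and the histidine lyase gene Hal (2.53 ± 1.80). Each of the 7 was lowest on array 3 of day 3. Albumin, the most abundant hepatocyte product, overlapped: Alb measured 4.25, 4.49 and 5.20 at day 3 and 4.96, 5.64 and 4.27 at day 7 (0.31 ± 0.56). In YFP-positive cells Tat differed by -1.0, with adjusted p = 1 (limma) for the difference between fractions.

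Of 14 genes of the acute phase response, plasma proteins that hepatocytes make after inflammation, 11 had a higher mean at day 7 (median 0.76, within slides 0.99 and -0.59). Haptoglobin, Hp, measured 3.22, 1.85 and 4.22 against 3.91, 5.09 and 5.44 (1.72 ± 0.63), with array 1 of day 7 below array 4 of day 3, and Orm2 (named after its values were seen) gave -0.76, -0.88 and 0.33 against 0.77, 1.90 and 1.42 (1.80 ± 1.28), the 1 separated member (7.14 percent, against 4.85 percent of all genes).

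**Figure D2:**
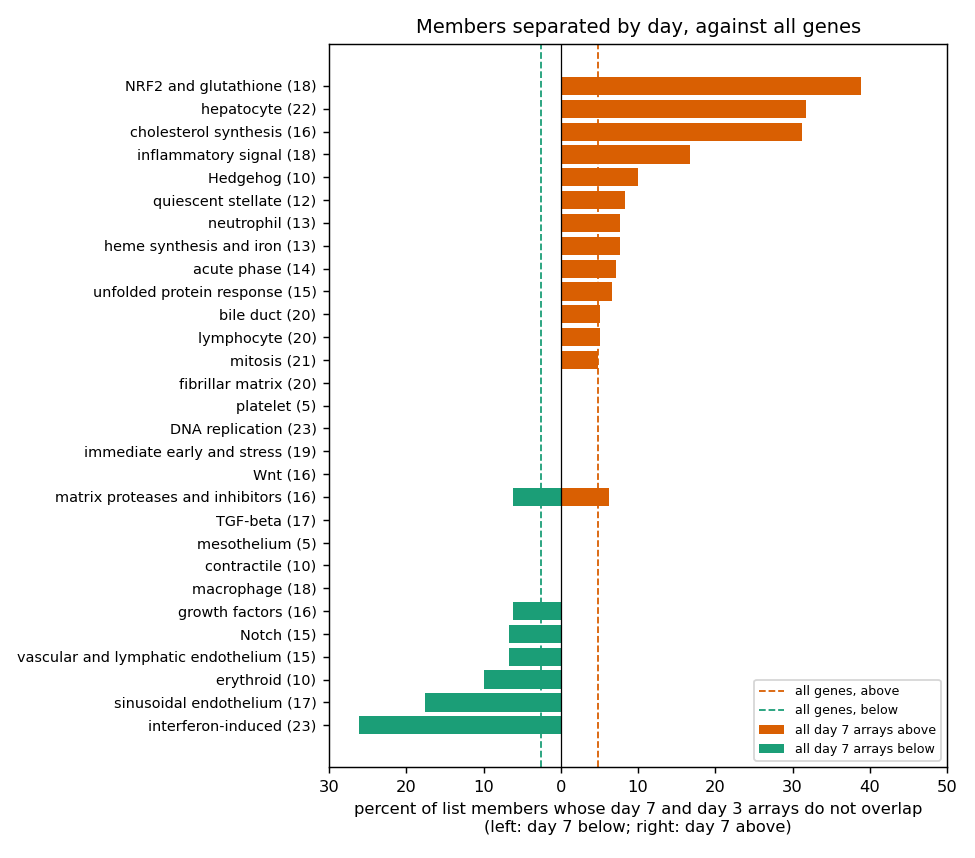
Percent of the members of each of the 29 gene lists (number measured on all 6 arrays in parentheses) for which the 3 day 7 arrays all lay above (orange, right) or all below (green, left) the 3 day 3 arrays. Dashed lines mark the same shares over all genes, 4.85 percent above and 2.54 percent below. NRF2 and glutathione (38.9 percent), hepatocyte (31.8 percent) and cholesterol synthesis genes (31.2 percent) reach farthest right and interferon-induced genes (26.1 percent) farthest left.

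Cholesterol synthesis genes were higher in mean at day 7 in 16 of 16 cases, and the median was positive within both slides. The mean level was 0.13, 0.80 and 0.57 at day 3 and 0.87, 1.56 and 1.33 at day 7, so every day 7 array lay above every day 3 array. The median difference was 0.67, with 0.88 within slide 6 and 0.77 within slide 7, where all genes stood at -0.13 and 0.45, so that the list exceeded all genes by more on slide 6. Relative to all genes the median was 0.62, or 1.17 with normexp and 0.68 with quantile scaling. For 5 of 16 members (31.2 percent, against 4.85 percent) the days were separated, 4 of 16 with normexp, quantile or median scaling, 3 of 16 with the mean of a gene's probes and 11 of 16 without array 3 of day 3, a leave-out that separated 10.3 percent of all genes above. No member passed over all genes, and the YFP-positive cells had a median difference of 0.43 for the same list.

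Idi1, which isomerises the isoprene unit, measured 2.88, 3.63 and 3.29 at day 3 and 4.17, 4.80 and 4.36 at day 7, a difference of 1.17 ± 0.50 that was 1.17 and 1.07 within slides 6 and 7. The array files place this probe on chromosome 2 (53553634 to 53553575, build mm9) and not at the gene on chromosome 13, so a copy of the gene may contribute. Cyp51, the lanosterol demethylase, gave -1.23, 0.11 and -0.98 against 0.69, 1.1 and 0.48 (1.45 ± 0.68, with 0.98 and 1.45 within slides). Fdps, which makes farnesyl diphosphate, gave -3.51, -2.02 and -1.68 against -1.66, -0.16 and -1.55 (1.28 ± 0.68), with the nearest arrays of the 2 days almost equal. Hmgcs1, an early synthase of the pathway, measured 3.63, 3.57 and 3.45 against 3.97, 4.35 and 4.26 (0.64 ± 0.36). Insig1, a sterol-regulated brake on the pathway, gave -0.39, -0.95 and -0.45 against -0.06, 0.90 and 0.58 (1.07 ± 0.66). These last 2 were named after their values were seen.

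Interferon-induced genes held the largest share of members below. For 6 of 23 genes measured on all 6 arrays (26.1 percent, against 2.54 percent) the day 7 arrays all lay below day 3, and for none above. Bst2, tetherin, which holds budding virus on the cell surface, measured 2.30, 1.49 and 2.54 at day 3 and 0.53, 0.73 and 0.98 at day 7. The groups were apart on every array, with a difference of -1.36 ± 0.42 (2.57-fold, adjusted p = 1 by limma), and -0.76 and -1.55 within slides 6 and 7. Cxcl9, a chemokine that draws T cells, gave 1.67, -0.27 and 1.84 against -1.54, -1.34 and -1.54, so that the day 7 arrays were nearly alike (-2.56 ± 0.87). The other separated members, named after their values were seen, were the ubiquitin-like modifier gene Isg15 (-0.49, -0.73 and -0.98 against -2.02, -1.35 and -2.19), Ifit3, whose product binds viral RNA sensors (2.91, 2.07 and 1.97 against 1.81, 1.56 and -0.43), the chemokine gene Cxcl10 (1.32, 0.20 and 1.30 against -0.05, -0.53 and -0.60) and the immunity-related GTPase gene Igtp (0.80, 1.05 and 1.60 against 0.69, 0.57 and -0.15). Margins between the nearest arrays were small for Ifit3 and Igtp.

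The rest of this list overlapped. The list's median difference was -0.46, but 0.12 within slide 6 and -1.13 within slide 7, and relative to all genes it was -0.51 with the 75th percentile and 0.06 with normexp, a turn of sign. With normexp 5 of 23 members were separated below (21.7 percent, against 4.95 percent of all genes). Leaving out 1 array at a time left 6 to 10 members below, the most without array 3 of day 7 (10 of 24), while 4.24 to 10 percent of all genes lay below. Without array 1 of day 3 or array 1 of day 7, 2 members were separated above (8.7 percent, against 11 and 14.2 percent of all genes). On slides 6 and 7 alone 4 were (17.4 percent, against 21.3 percent of all genes). Rsad2, viperin, named after its values were seen, measured 3.81, 3.87 and 4.13 at day 3 and 3.14, 4.00 and 4.01 at day 7, an overlap with a difference of -0.22 ± 0.90. The 2-5 oligoadenylate synthetase gene Oas1a gave -0.32, -1.06 and 1.47 against -1.98, -0.77 and -1.30 (-1.38 ± 0.62), with 0.29 and -2.77 within slides. In YFP-positive cells Bst2 and Isg15 differed by -1.14 and -1.79 between the same days, and Ifit3, Cxcl10 and Igtp by 0.00, 0.42 and 0.02.

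Interferon acts on such genes through a short promoter element to which STAT and IRF proteins bind, searched here as 2 copies of GAAA with any 2 bases between them, on either strand. The window was the 250 bases before each start in RefSeq promoters (build GRCm38.p6), where 2.98 percent of 32851 promoters hold it. Of the 24 genes 18 had a promoter in that table and 10 of these hold it, 5 of the 6 separated genes (not Cxcl9) and 5 of the other 12. The promoters of 4 genes are printed 5′ to 3′ on the strand of the gene, each match in capitals, to show the element in 3 separated genes and in Rsad2, which overlapped. They lie at chr8:71537473-71537722 (minus strand, Bst2), chr4:156200819-156201068 (minus, Isg15), chr19:34583279-34583528 (plus, Ifit3) and chr12:26456453-26456702 (minus, Rsad2).
Bst2: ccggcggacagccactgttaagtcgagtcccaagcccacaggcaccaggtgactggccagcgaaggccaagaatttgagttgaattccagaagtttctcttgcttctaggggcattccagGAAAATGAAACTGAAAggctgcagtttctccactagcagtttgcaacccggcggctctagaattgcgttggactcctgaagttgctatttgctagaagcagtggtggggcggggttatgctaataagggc
Isg15: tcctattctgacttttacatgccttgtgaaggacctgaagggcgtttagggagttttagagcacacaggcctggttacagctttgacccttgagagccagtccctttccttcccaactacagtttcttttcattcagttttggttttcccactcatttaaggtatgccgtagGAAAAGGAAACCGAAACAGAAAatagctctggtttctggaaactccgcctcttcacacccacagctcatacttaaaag
Ifit3: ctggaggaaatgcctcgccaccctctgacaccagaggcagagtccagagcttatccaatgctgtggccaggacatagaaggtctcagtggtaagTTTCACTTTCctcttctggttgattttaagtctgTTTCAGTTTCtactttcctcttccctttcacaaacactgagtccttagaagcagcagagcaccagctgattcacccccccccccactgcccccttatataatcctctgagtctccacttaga
Rsad2: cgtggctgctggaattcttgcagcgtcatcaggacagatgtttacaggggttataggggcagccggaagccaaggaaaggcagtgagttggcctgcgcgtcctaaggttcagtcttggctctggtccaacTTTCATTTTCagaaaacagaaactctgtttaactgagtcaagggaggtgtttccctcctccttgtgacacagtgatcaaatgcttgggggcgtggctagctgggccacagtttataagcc
Bst2 and Isg15 hold 2 and 3 overlapping matches, and Ifit3 holds 2 separate ones on the opposite strand. Rsad2 has 1 match, also on the opposite strand. The motifs of the other pathways were searched in the same way. TGACNNNGC, the core of the antioxidant response element, was in the promoters of 3 of 15 NRF2 list genes (Gclm, Txnrd1 and Ugdh) against 10.2 percent of all promoters, and TCACNCCAC, a sterol response element, in 1 of 10 cholesterol synthesis genes (Hmgcs1) against 1.05 percent. A match is a description of letters and not a binding site, and a motif can also lie outside this window.

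**Figure D3:**
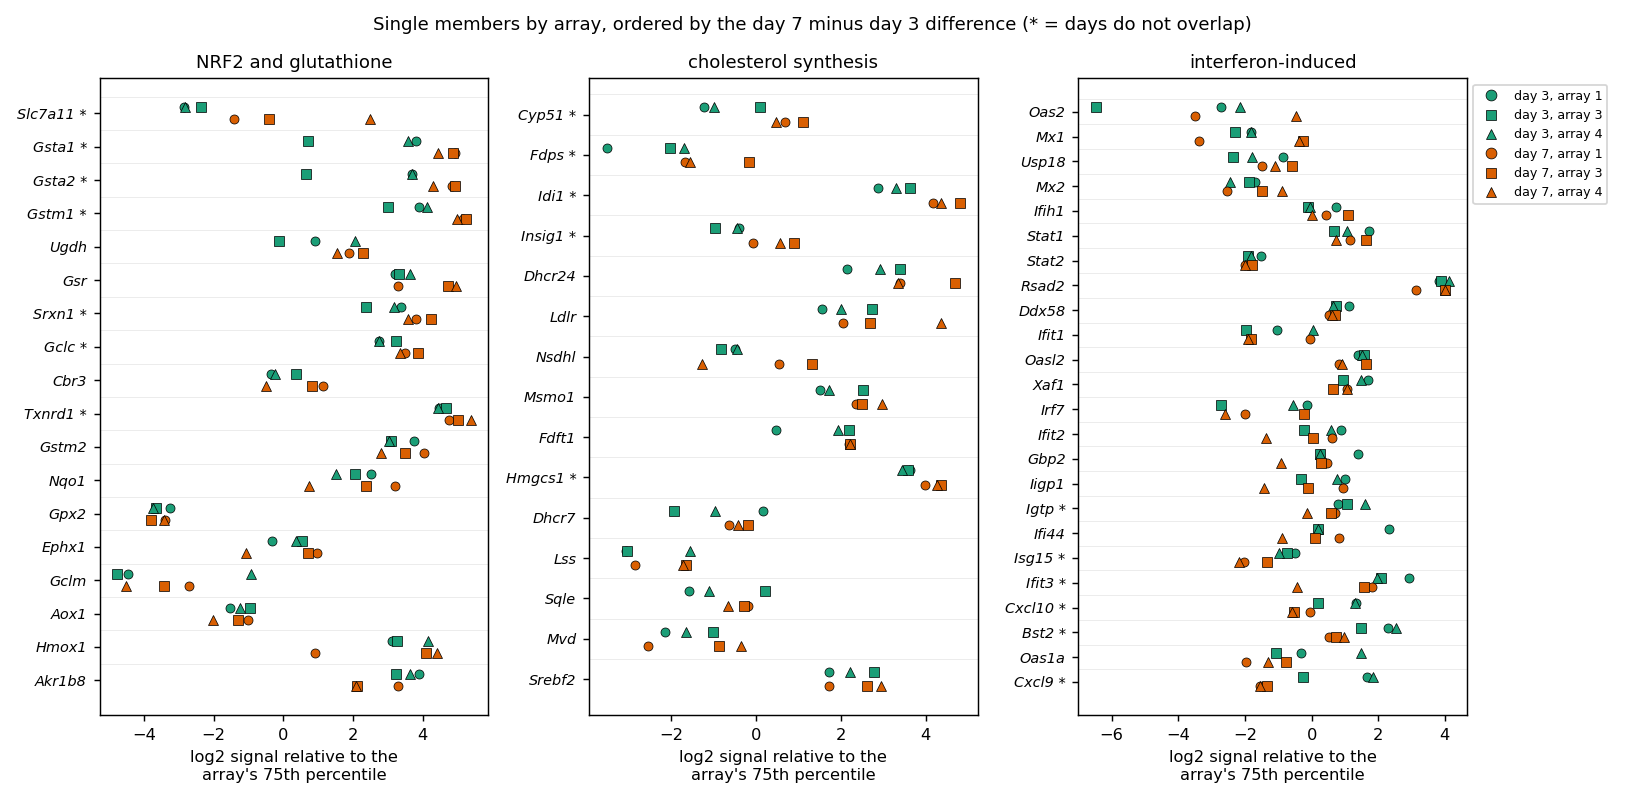
Log2 signal of members of the NRF2 and glutathione, cholesterol synthesis and interferon-induced lists on the 6 arrays, relative to the array's 75th percentile, ordered by the day 7 minus day 3 difference. Green symbols are day 3, orange symbols day 7, the shape gives the array number, and an asterisk marks genes without overlap of the days. Asterisks stand at 7, 5 and 6 genes, on the higher side in the first 2 panels and on the lower side in the last.

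Inflammatory mediators stood high on array 4 of day 7. Cxcl2, a neutrophil-attracting chemokine, measured -1.99, -0.29 and -1.41 at day 3 and 0.28, 1.12 and 3.50 at day 7, all above day 3 (2.86 ± 1.04, 7.25-fold). Ccl20, the ligand of CCR6, gave -3.37, -3.20 and -3.47 against -1.11, -2.43 and -2.13 (1.46 ± 0.64), and Tnfaip3, the feedback inhibitor A20 (named after its values were seen), gave 2.27, 2.0 and 2.35 against 2.63, 2.36 and 4.17. These were the 3 of 18 members separated by day (16.7 percent, against 4.85 percent), and without array 1 of day 7 or array 3 of day 3 they were 5 (14.2 and 10.3 percent of all genes). Interleukin 1 beta, Il1b, also named after its values were seen, overlapped with -0.35, 0.48 and 1.68 against 1.08, 3.51 and 4.58 (2.45 ± 1.34), and the prostaglandin synthase gene Ptgs2 gave -6.68, -1.90 and -3.29 against -2.47, -2.03 and 0.93 (2.76 ± 1.26, within slides -0.13 and 4.22). Tnf differed by -0.81 ± 1.11. The median of the list was 0.18, with 0.25 and 1.74 within slides 6 and 7, where macrophage genes had medians of 1.12 and 0.78 and neutrophil genes of 3.70 and 1.67. The part of those cells in these values was not tested. In YFP-positive cells the list had a median difference of 1.24, and Cxcl2 differed by 2.75. Macrophage genes had a median difference of 1.2 there and neutrophil genes of 1.8, and their part in these values was not tested either.

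**Figure D4:**
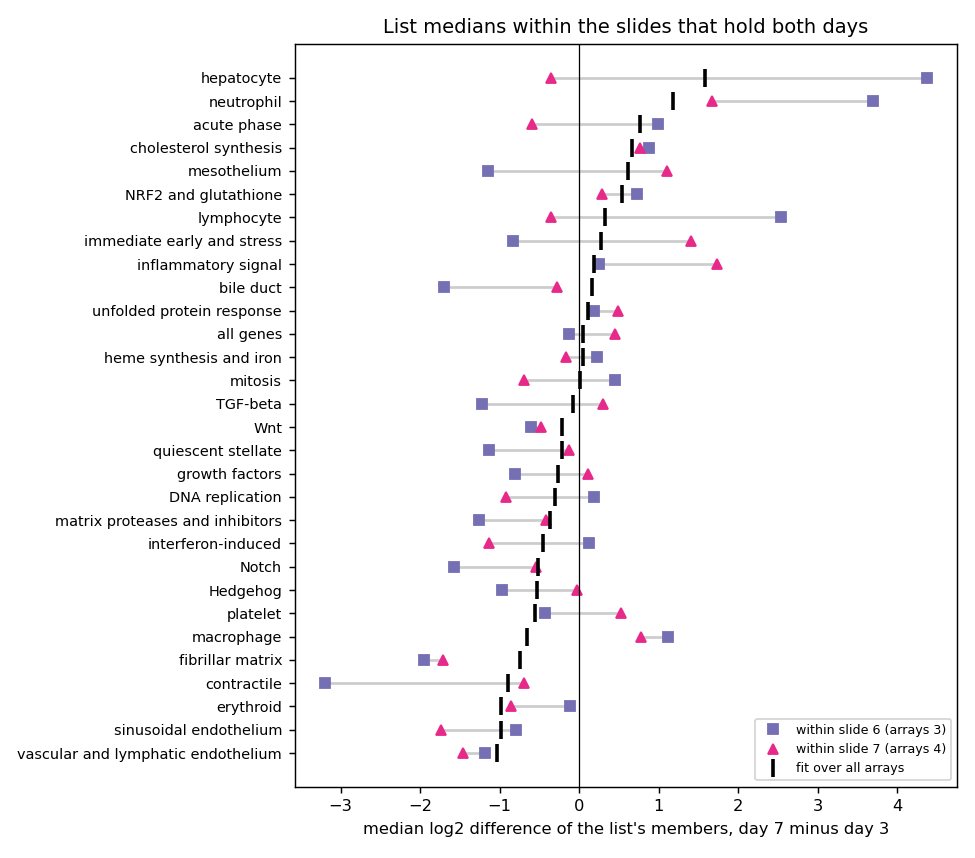
Median log2 difference, day 7 minus day 3, of each gene list and of all genes: within slide 6 (purple squares, array 3 of each day), within slide 7 (pink triangles, array 4 of each day) and in the fit over all arrays (black bars). The 2 slides lie far apart for hepatocyte genes (4.38 and -0.36), and all genes themselves stand at -0.13 on slide 6 and 0.45 on slide 7.

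With all 6 arrays, lists of the remaining cell types and processes showed little separation by day, set against 4.85 percent of all genes above and 2.54 percent below. Bile duct genes had 1 of 20 members separated (the tight junction gene Cldn4, 5 percent), a median of 0.16 and within-slide medians of -1.70 and -0.28. Krt19, the bile duct keratin, gave -0.69 ± 1.35. Mitosis genes had 1 of 21 separated (Cdc20, which activates the anaphase ligase and was named after its values were seen, 4.76 percent) and a median of 0.01, and of 23 DNA replication genes 20 had a lower mean (median -0.31, within slides 0.18 and -0.92) with none separated. Heme synthesis and iron genes, the pathway that DDC blocks, had a median of 0.05 and 1 of 13 separated, the ferritin heavy chain Fth1, with 5.69, 5.78 and 5.69 against 5.87, 6.02 and 6.14 (0.29 ± 0.28). The unfolded protein response list had a median of 0.11 and 1 of 15 separated, Herpud1 of the degradation machinery of the endoplasmic reticulum (0.37 ± 0.28). The TGF-beta, Wnt and immediate early and stress lists had none separated, with medians of -0.08, -0.22 and 0.28. Of 10 Hedgehog genes 8 had a lower mean, while the ligand gene Ihh, the 1 separated (10 percent), was higher on every day 7 array (-4.86, -5.35 and -4.24 against -3.48, -2.99 and -4.04, 1.32 ± 0.59). Single leukocyte genes were separated too, the B cell receptor component Cd79a (-6.18, -6.13 and -4.91 against -4.84, -3.20 and -3.67) and neutrophil elastase, Elane (-9.68, -8.00 and -4.98 against -4.97, -2.96 and -1.64), each 1 of its list (5 and 7.69 percent). Without array 1 of day 7, 6 of 20 lymphocyte and 13 of 13 neutrophil genes were separated above (14.2 percent of all genes). The erythroid regulator Klf1, 1 of 10 (10 percent), was lower on all 3 day 7 arrays, of which 1 was well above background, by a small margin to array 1 of day 3. Elane was well above background on 1 day 3 array. With normexp, quantile or median scaling no Hedgehog, lymphocyte or neutrophil gene was separated above. Cdc20 and Cldn4 differed by 0.60 ± 0.54 and 1.37 ± 1.30.

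Beyond the lists, genes were named by the smallest unadjusted p among those separated by day, of the same sign within both slides, of at least 2-fold and well above background on all arrays of the higher day. This rule gave 645 candidates higher at day 7 and 345 lower, from which 12 in each direction are named after 12 and 5 candidates with only clone or accession names were passed over. Since the rule used this contrast, their separation is a description. Hid1, a protein of dense-core vesicle sorting listed in the files as C630004H02Rik, had the lowest adjusted p of the named genes (0.591 by limma). It measured 0.46, 0.87 and 1.08 at day 3 and -1.33, -1.18 and -2.28 at day 7 (-2.39 ± 0.45, 5.26-fold, probe at chromosome 11, 115209818 to 115209759, build mm9). At day 14 it stood at 0.95, 0.26 and 0.41, within reach of day 3.

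For several of the genes lower at day 7 the day 14 arrays lay closer to day 3. Nr5a2, the nuclear receptor LRH-1 of bile acid and biliary gene control, measured 1.27, 0.84 and 1.08 at day 3, 0.19, -0.45 and -1.97 at day 7 and 1.19, 1.40 and 0.37 at day 14 (day 7 minus day 3 of -1.81 ± 0.47). Cfap69, a cilia and flagella protein, gave 0.86, 1.72 and 1.45, then -0.72, -2.30 and 0.19, then 2.03, 1.74 and 1.12. The ubiquitin ligase gene Trim35 gave 1.03, 1.18 and 0.55, then -0.22, -0.45 and -0.33, then 1.40, 1.22 and 1.07, although 1 of its 2 other probes pointed the other way. These day 14 levels were not tested against day 7. The genes were picked for low day 7 values, so another group can lie nearer day 3 through that choice alone. Sytl2, which tethers secretory vesicles, lay between both levels at day 14, with -1.98, -1.60 and -1.71, then -5.90, -3.94 and -5.53, then -2.79, -3.22 and -3.25 (-3.36 ± 0.70). Foxd1, a forkhead factor of stromal progenitors, was well above background on all day 3 arrays (-5.09, -5.63 and -4.95) and on none at day 7 (-10.02, -9.78 and -8.03). It was 9.78-fold lower with day 7 values raised at least to the dimmest probe that passed the background test on each array. This is not a strict lower limit.

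The remaining genes of this group were B4galt7 and Pkdcc, which act in proteoglycan assembly and in extracellular phosphorylation, Tbc1d22b, the oxidoreductase gene Wwox, Nsmce3 of the SMC5/6 complex and the matrix protein gene Tinagl1, with differences of -1.26 to -3.19. Tinagl1 measured 3.61, 3.42 and 3.53 against 2.86, 1.52 and 1.70, and Pkdcc -5.70, -2.69 and -3.07 against -6.55, -7.53 and -6.94. Wwox turned to 0.29 with the mean of its 5 probes, and the only other probe of Nsmce3 gave the opposite sign.

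Among the 12 named genes higher at day 7, Adh7, an alcohol and retinol dehydrogenase of stomach and other epithelia, measured -10.09, -8.49 and -7.80 at day 3 against -1.76, -1.28 and -3.17 at day 7 (6.72 ± 1.45, with 7.21 and 4.63 within slides 6 and 7). Only 1 of its 3 day 3 arrays was well above background, so the size of this difference is uncertain. It stood at -3.00, -3.36 and -3.68 at day 14, and in YFP-positive cells its mean was -8.41 at day 3 and -8.08 at day 7. Tff3, the trefoil peptide of mucosal epithelia, gave -3.95, -5.31 and -3.99 against -0.85, -0.70 and -2.59 (3.04 ± 0.68) and stood at -4.70, -5.78 and -5.29 at day 14, which was not tested. Spink1, a trypsin inhibitor listed as Spink3, gave -3.48, -7.25 and -1.79 against 0.97, 2.47 and -0.51 (5.15 ± 1.29), and the lipoprotein gene Apoc2 0.24, -0.34 and 2.16 against 2.68, 3.47 and 2.41 (2.17 ± 0.61). Both were lowest on array 3 of day 3, as were the hepatocyte genes, and they differed by 9.72 and 3.81 within slide 6 but by 1.28 and 0.25 within slide 7. Det1, part of a ubiquitin ligase, was uniform within days with -1.66, -1.13 and -1.88 against 0.15, -0.09 and 0.20 (1.64 ± 0.43), and Plcxd2, a phospholipase-like gene, gave -3.29, -4.29 and -2.38 against -0.14, -0.94 and -1.26, with its other probe of opposite sign.

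The other 6 were dim at day 3 as well. Caps2, a calcium-binding protein, was well above background on no day 3 array and on all day 7 arrays (-9.42, -10.05 and -10.17 against -5.70, -4.10 and -3.84), 22.6-fold higher against a floor for the day 3 values. The same held for Dmrta1 (15.2-fold), Vmn1r50, a vomeronasal receptor listed as V1rb1 (7.77-fold), the T cell receptor segment Trav14n-3 (6.40-fold) and Iho1, a meiotic gene listed as Ccdc36 (4.39-fold). For each fold, day 3 values were raised at least to the dimmest probe that passed the scanner software's background test on that array. A gene that failed its own test may lie above this floor, so these folds are not strict lower limits. With normexp the differences of Trav14n-3, Iho1 and Vmn1r50 turned to -0.58, -0.84 and -0.35, so their direction depends on the background correction. Themis, a thymocyte gene listed as E430004N04Rik, measured -5.91, -8.01 and -4.92 against -3.17, -2.91 and -1.34, with 2 of 3 day 3 arrays well above background, and 1 of its 2 other probes pointed the other way.

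**Figure D5:**
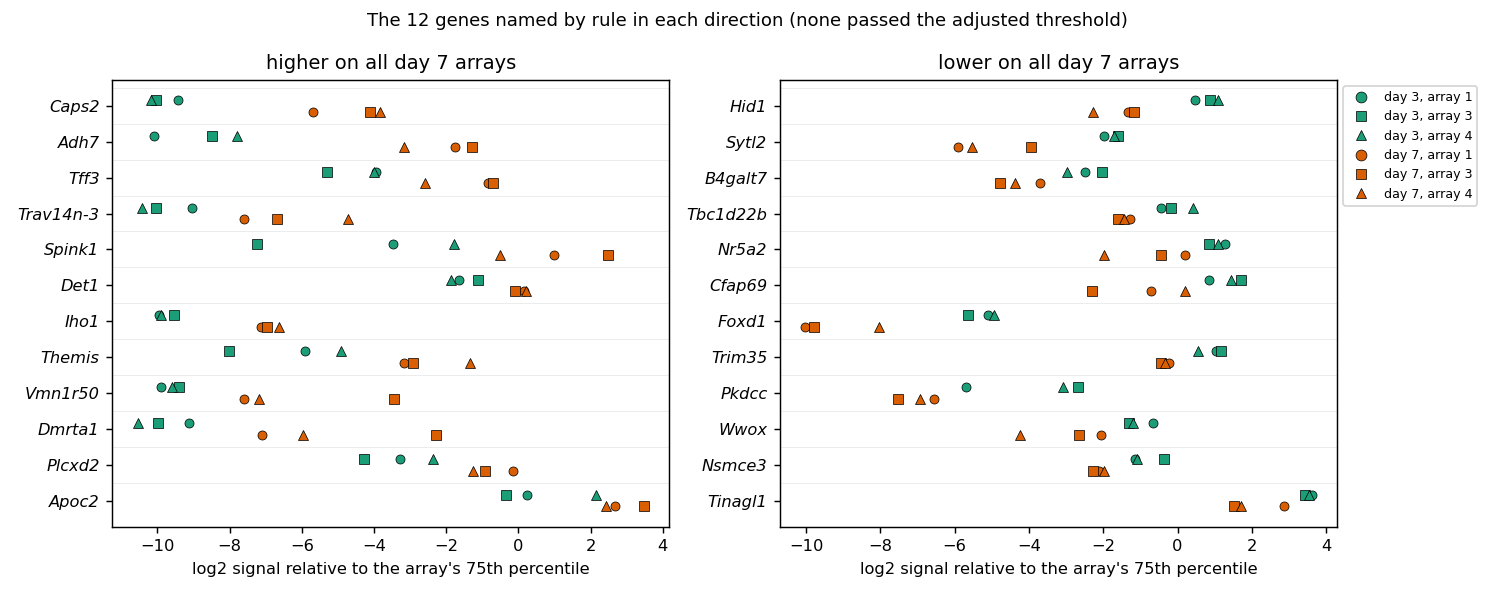
Log2 signal of the 12 named genes higher (left) and the 12 lower (right) at day 7 on each of the 6 arrays, relative to the array's 75th percentile. Green symbols are day 3, orange symbols day 7, and the shape gives the array number. No gene has overlapping days, which the rule required, and none passed the adjusted threshold; the lowest adjusted p was 0.591 for Hid1.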

How the data were processed

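Scanner files of 20 Agilent 1-colour arrays were used, of which 6 form the comparison and 14 share its estimate of the spread. The remaining 6 samples are not analysed here. Per the labels' protocols, RNA was isolated with Trizol and RNeasy Mini, amplified with WT-Ovation Pico and labelled with Cy3. The file headers name Feature Extraction 10.5.1.1, and the submitters' processing notes name 9.53. The processed, mean and background signals are intensity values, per the file headers, and the processed signal is background-subtracted and detrended but not normalized between arrays. The values the authors deposited for the whole series are signed fold changes on a linear scale against day 0, a score here, and were used only as an alternative.

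Control and outlier spots were left out (43379 spots, 41174 probes). The log2 processed signal minus the array's 75th percentile was taken, probes had to be well above background on 2 or more of the 20 arrays (39595 kept), and each gene was represented by its brightest probe (26650 genes, 277 with a missing value on some array). Names were matched to RefSeq (GRCm38.p6): 16249 by accession, 2385 by symbol, 859 by synonym, 7157 not matched. Probe positions are mm9. A single linear model over the 7 groups (limma 3.58.1, run under R 4.3.3, data.table in version 1.17.8 and statmod 1.5.0) was used with Benjamini-Hochberg adjustment and a threshold of 0.05. The fit was also run on simulated data with noise drawn separately for each gene, which cannot show how it handles shifts shared by many genes on an array. The number of arrays limits the precision. Arrays were not paired by replicate number in the main fit, and slides were read from the barcodes. Genes were named by the rule given in the text, and from each of 29 lists (460 genes) the first member, up to 4 members past the threshold and the 3 of smallest unadjusted p. The results of 2 single genes of the lists are not reported here, and 1 of them is left out of the plot of single members. The comparison and the lists were chosen with earlier results of these data known. Alternatives covered background correction, scaling, dim-probe filter, probe choice, arrays in the fit, slide and replicate blocks, array weights, leaving out arrays and the authors' deposited values.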

Additional observations from a re-analysis of the deposited data

How the results depend on the processing

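The count of genes past the threshold was 0 (limma, adjusted p) under every alternative with all 6 arrays except the fit of the 9 YFP-negative arrays alone, which passed 1 clone-named gene (adjusted p = 0.00912). Leaving out 1 array at a time gave 0 to 11 genes. Without array 1 of day 7 there were 11. Of these only the caveolin gene Cav1 was lower (-2.55 ± 0.40, adjusted p = 0.0402 by limma), and it was named after its value was seen. All the others were higher, by 3.56 (Nlgn1) to 5.47 (Defb37), and they included olfactory receptor and clone-named genes. Without array 4 of day 7 there were 2 and without array 4 of day 3 there was 1. For the difference between fractions the count was 0 in the other fits and 0 to 1 with 1 array left out, the 1 without array 4 of day 7. The replicate block gave 0 genes, with 986 at an unadjusted p under 0.05. Deviations from the mean of the day correlated at 0.11, -0.10 and 0.00 between arrays of the same number. Deviations from means of 3 arrays constrain each other, so these values cannot exclude a pairing by number. Arrays 3 and arrays 4 of the days did share slides. Quantile and median scaling, the filters on dim probes and both fits with slide as a block over all arrays turned the sign of no named gene. Normexp turned Trav14n-3 to -0.58, Iho1 to -0.84, Vmn1r50 to -0.35, Acta2 to 0, Ppbp to -0.05, Upk3b to -0.10, Znrf3 to -0.43 and Gli2 to -0.12, and the mean of a gene's probes turned Wwox to 0.29. On slides 6 and 7 alone the differences turned for Acta2 to 0.13, Adgre1 to 1.25, Timd4 to 0.10, Marco to 0.42, Hba-a1 to 0.57, Pf4 to 0.74, Nqo1 to -0.22, Tnf to 0.50, Fgf7 to 0.26, Hmox1 to 0.54 and Rsad2 to 0. Array weights turned Adgre1 to 0.26, C1qb to 0.02, Pf4 to 0.31 and Hmox1 to 0.13. The authors' deposited table, a value with no test, turned Hand2 to 0.35, Col1a1 to 0.12, Ptprc to -0.62, Mmp2 to 0.63 and Hhip to 0.22. With 1 array left out, the ranges of the genes that turned were Acta2 -0.29 to 0.21, Adgre1 -1.73 to 1.12, C1qb -2.31 to 0.20, Timd4 -2.24 to 0.15, Marco -1.59 to 0.43, Ptprc -0.39 to 2.19, Hba-a1 -1.73 to 0.54, Pf4 -1.41 to 0.86, Gp9 -1.31 to 0.26, Alb -0.03 to 0.65, Krt19 -1.70 to 0.64, Gpm6a -1.27 to 0.38, Mki67 -0.09 to 0.38, Nqo1 -0.46 to 0.78, Fech -0.31 to 0.16, Ifit1 -0.86 to 0.26, Tnf -1.95 to 0.38, Hspa5 -0.02 to 0.45, Creld2 -0.11 to 0.93, Tgfb1 -0.94 to 0.92, Mmp2 -1.24 to 0.23, Fgf7 -0.69 to 0.39, Jag1 -1.31 to 0.12, Wnt9b -1.47 to 0.33, Gli2 -0.07 to 1.20, Hmox1 -1.01 to 0.73, Rsad2 -0.37 to 0.07. For each of these the cause was not tested.

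With 3 arrays against 3, no animal of origin stated and array 1 of day 7 apart from the other day 3 and day 7 arrays in leukocyte genes, the values describe these samples. Signal over background limits the dim genes. Where no array of a day was well above background, folds were set against a floor and are not strict lower limits.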
